A study of Mus musculus with 26 samples.

Results

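KO1 and KO2 are 2 clones of the mouse mammary tumor line 4T1 in which CRISPR/Cas9 was used to delete the start of the long non-coding RNA gene MaTAR25, and the transcriptomes of the clones were compared with each other over all genes. The libraries were chosen by their titles, KO1 replicates 1 to 3 and KO2 replicates 1 to 4, which is 7 of the 26 labelled samples of the series. Both clones carry the genotype MaTAR25-/- on the BALB/c background and were grown in DMEM with fetal bovine serum and antibiotics, without further treatment, and polyA RNA was sequenced from each. The 2 control libraries, labelled wild type, came from 4T1 cells that received a guide RNA against Renilla luciferase, a gene that mouse cells lack. Each KO line grew from a single sorted cell, so the contrast is 1 clone against 1 clone, and every difference between them may belong to the clone rather than to the loss of MaTAR25. The study's methods describe single-cell control clones as well. A difference of a KO clone from the controls may therefore likewise belong to a clone. No source used here says whether replicates came from separate cultures, so p-values measure only the spread between these libraries.

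4T1 is a transplantable mammary carcinoma line that grows and spreads in immunocompetent BALB/c mice and is used as a model of triple-negative breast cancer. Long non-coding RNAs are transcripts without a long reading frame, and many of them, MaTAR25 included, are retained in the nucleus. Tumor lines are mixtures of cells that differ in gene expression, in chromosome content and in DNA methylation, and a clone inherits the state of its founder cell. The comparison of clones edited at the same gene asks how far 2 such lines stood apart.

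The guide RNAs of the study's design are shown because they define where both clones were targeted. The 3 upstream guides and the 1 downstream guide are written 5′ to 3′ in lower case with the PAM, the short motif that Cas9 needs beside its target, in capitals.
upstream gRNA1: gtggccccagggtgatgactGGG
upstream gRNA2: aacttcccggccttatcgtcTGG
upstream gRNA3: gcctgacctagtttctcaccCGG
downstream gRNA: aagtcagactcttggcgggcGGG
On mouse build GRCm38 each had 1 match with a PAM on chromosome 2. The upstream targets lay on the plus strand at chr2:167833958-167833977 for gRNA1, chr2:167833765-167833784 for gRNA2 and chr2:167833805-167833824 for gRNA3, which is 328, 135 and 175 bases before the MaTAR25 start site. The downstream target lay on the minus strand at chr2:167833457-167833476, 187 bases into the gene. Pairing the downstream guide with gRNA1, gRNA2 or gRNA3 puts 515, 322 or 362 bases between the cut sites. These distances follow from the guide positions alone and are not the sizes of the deletions in the clones, which were not analysed here. Which pair gave which clone was not stated in the labels or methods.

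MaTAR25 itself, listed as 1200007C13Rik at chr2:167827693-167833646 on the minus strand, was low in all libraries. Levels are given in replicate order in CPM, a gene's read count divided by the library's total on genes after TMM scaling and brought to the same fixed total in every library. The controls held 0.768 and 0.915 CPM, the KO1 libraries 0.0319, 0.232 and 0 CPM, and the KO2 libraries 0.307, 0.0421, 0.203 and 0.123 CPM. Both clones lay below both controls, by a log2 difference of -3.39 for KO1 (edgeR adjusted p = 0.0341) and -2.26 for KO2 (edgeR adjusted p = 0.0785). The clones overlapped, and their log2 difference of -1.13 (SE 0.93) did not pass the test (edgeR adjusted p = 0.451). These values rest on 9 counts over KO1 and 27 over KO2, and the libraries of each clone spread widely. The test therefore cannot decide whether residual transcript differed.

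Depth ran from 30652584 to 61110585 counts on genes in KO1 and from 25367211 to 48924579 in KO2. KO2 libraries varied more among themselves, with a median SD of log2 CPM of 0.342 over 11967 genes against 0.187 in KO1 and 0.0858 in the controls. KO2 replicates 3 and 4 stood apart from replicates 1 and 2 on the third principal component, and replicate 3 had the highest share of mitochondrial counts, 1.72% against 1.23% or less elsewhere. The deposited files also differ in their line ends, and all 3 KO1 files have the kind that among KO2 only replicate 3 has, so this feature of the files cannot be fully told apart from the clone. Their part in the results was not tested beyond the fits given below, which left out 1 library or took the line ends as a term.

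The tumor cell identity was checked with marker genes. Of 9 markers listed for 4T1 cells 8 passed the filter on low counts, among them the epithelial genes Cdh1, Epcam, Krt8 and Krt18, while the basal keratin Krt5 was at 0 in every library. The triple-negative label refers to receptor protein, and at the RNA level Pgr (progesterone receptor) was at or near 0, whereas Esr1 (estrogen receptor) stood at 17.4 to 18.1 CPM in KO1 and 10.2 to 25.2 CPM in KO2, and Erbb2 (HER2) at 117 to 140.4 and 56.7 to 120.4 CPM. Markers of other cells were sparse: 4 of 10 fibroblast markers, 3 of 11 leukocyte markers and 3 of 8 endothelial markers were tested. The fibroblast markers summed to 23.9 to 47.9 CPM in KO1 and 13.3 to 49.96 CPM in KO2, mostly Pdgfra, with Col3a1, Dcn, Lum and Thy1 at 0. Leukocyte markers summed to 14.5 to 29.4 and 5.21 to 29.0 CPM, mostly Cd68 and Csf1r, with Adgre1 and Tyrobp at 0 and Cd3e, Lyz2 and Ptprc under 1 CPM. Endothelial markers summed to 76.3 to 83.4 and 60.5 to 87.6 CPM, nearly all of it Eng, with Kdr and Pecam1 at or near 0.

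How many genes separated the clones was asked first. Of 15023 genes tested, 2944 (19.6%) were called between KO1 and KO2 at an edgeR adjusted p under 0.1, of which 1417 (9.43% of genes tested) were higher in KO1 and 1527 (10.2%) higher in KO2. The median log2 difference over all tested genes was -0.02. A fold of at least 2 was reached by 687 of the called genes higher in KO1 and 836 of those higher in KO2, and at least 16-fold by 98 and 109. Levels of the 3 KO1 and the 4 KO2 libraries did not overlap for 3681 genes (24.5%), and 2575 genes were both called and free of overlap.

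The count depended on single libraries. Without KO1 replicate 2 it was 874, without KO1 replicate 1 it was 1424, without KO1 replicate 3 it was 1704, and without KO2 replicate 3 it was 4077. With the line ends of the files as a term 473 genes were called, which is 3.15% of the genes tested, against 19.6% without the term. Of the 473 genes 449 were among the 2944, and all 449 had the same direction. Both fits use the same libraries, so a change of direction was unlikely. Of the 114 called genes named here 56 lost their call with this term, 32 of them also without some library and 24 with the term alone. The adjusted p of these 24 stands beside their values, and for the 32 the libraries are named instead. Among genes whose call is given as lost without a library, only Casp4, Hes1, Klf2, Prex1 and Slc4a4 kept it with the term.

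The called genes were read through 37 lists of genes with shared functions, each described by how many tested members were called and by its median. Over all tested genes 9.43% were called higher in KO1 and 10.2% higher in KO2, and several lists were far from both. Interferon-stimulated genes, ATF4 targets, MHC class I presentation genes and epithelial junction genes had called members in the KO1 direction and none in the KO2 direction. Cadherins with protocadherins and AP-1 genes had most of theirs in the KO2 direction. No test of a list was made, and the counts stand as descriptions.

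**Figure D1:**
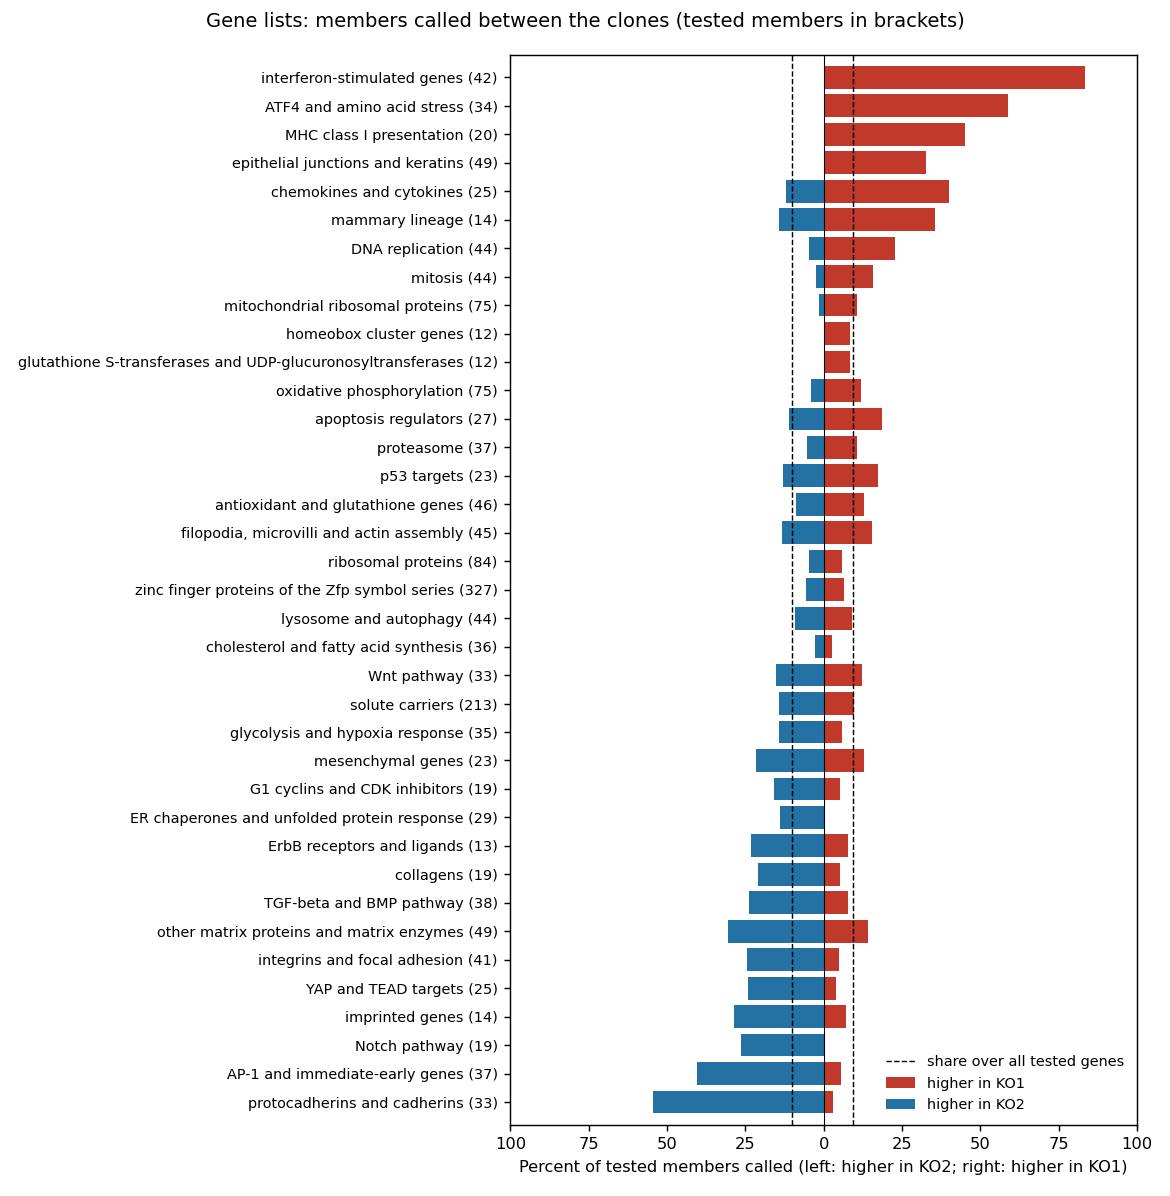
Each bar gives the percent of a list's tested members (number in brackets) called higher in KO1 (right, red) or higher in KO2 (left, blue), and the dashed lines give the shares over all tested genes, 9.43% and 10.2%. The interferon-stimulated genes reach 83.3% in the KO1 direction, and the cadherins and protocadherins have 18 of 33 members in the KO2 direction.

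The largest differences were genes on in one clone and at or near 0 in the other. Counting genes with at most 3 counts over all libraries of one clone and at least 1 CPM in every library of the other, 7 were silent in KO1 and 4 were silent in KO2, all protein coding and all called. Where a clone was at 0, the fold is a lower bound set by a floor of 3 counts over that clone, and where it had 1 to 3 counts the ratio is given with its 95% interval, which covers counting error only.

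Sulf2, at chr2:166073089-166155663, encodes an extracellular sulfatase that trims heparan sulfate chains and so alters growth factor binding. It had 0 counts in all 3 KO1 libraries, 6.61, 32.5, 6.56 and 8.72 CPM in KO2, and 40.9 and 31.2 CPM in the controls, which put KO2 at least 489-fold higher than KO1 (edgeR adjusted p = 0.00435). Sall2, a zinc finger transcription factor at chr14:52311172-52328762, was at 0 in KO1 and at 5.69, 3.54, 5.40 and 9.05 CPM in KO2, at least 275-fold higher (edgeR adjusted p = 0.00478), with 0.461 and 0.0305 CPM in the controls. Controls thus sat with KO2 for Sulf2 and near KO1 for Sall2.

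Ckb, the brain-type creatine kinase that buffers ATP, had the smallest standard error of the log2 difference (0.38) among the 16 genes named for the size of their difference. Its levels were 0.0159, 0.0332 and 0.0270 CPM in KO1 and 9.48, 8.55, 8.68 and 8.81 CPM in KO2, a ratio of 385 (95% interval 131 to 1869, edgeR adjusted p = 1.9e-05), and the controls held 4.76 and 3.93 CPM. Chn2, a Rac GTPase-activating protein, showed 1 count in KO1 and 1.23, 3.58, 11 and 4.31 CPM in KO2 (ratio 701, interval 126 to 27738, edgeR adjusted p = 0.00325). The controls held 3.66 and 2.78 CPM of Chn2, so KO1 was again the line that lacked it.
Tmem121, a membrane protein gene, had 0.0159, 0.0332 and 0 CPM in KO1 against 13.5, 7.20, 2.71 and 4.66 CPM in KO2 (ratio 426, interval 118 to 3522, edgeR adjusted p = 0.00138), with controls at 2.46 and 3.14 CPM. Tbcel, a tubulin cofactor-like gene at chr9:42412316-42507809, was at 0 in KO1, at 9.12, 10.1, 0.814 and 10.8 CPM in KO2 and at 13.9 and 14.7 CPM in the controls, at least 320.2-fold higher in KO2 (edgeR adjusted p = 0.00693).
Adora1, the adenosine A1 receptor, was at 0 in KO1 and at 7.39, 3.07, 0.0226 and 1.00 CPM in KO2, at least 110.0-fold higher (edgeR adjusted p = 0.041). That call was lost without KO1 replicate 1 (edgeR adjusted p = 0.114) or KO1 replicate 2 (edgeR adjusted p = 0.12). Psg22 (pregnancy-specific glycoprotein, at 0 in KO1 and control) and Mgam (maltase-glucoamylase) completed the 7 genes silent in KO1, with KO2 levels of 5.19, 1.94, 1.11 and 27.5 CPM and of 11.2, 3.37, 1.11 and 2.29 CPM. Tbcel and Adora1 are not among the 7, since both were under 1 CPM in KO2 replicate 3. The call of Psg22 was lost with the line ends as a term (edgeR adjusted p = 0.139).

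In the other direction, Ehf at chr2:103263433-103303278 led. It encodes an ETS-family factor of epithelial cells, and its levels were 10.2, 64.9 and 40.1 CPM in KO1 against 0, 0, 0.0452 and 0 CPM in KO2, a ratio of 2399 (95% interval 664 to 19815, edgeR adjusted p = 0.000785). Skor2, a transcriptional corepressor known from cerebellar Purkinje cells, had 14.0, 8.75 and 9.47 CPM in KO1 and no count in KO2 or in the controls, at least 586-fold higher (edgeR adjusted p = 0.00138). Kazn, which encodes the desmosome-associated protein kazrin, had 1.72, 7.0 and 9.14 CPM in KO1 and 1 count in KO2 (ratio 773, interval 138 to 30568, edgeR adjusted p = 0.00174).
C1s1, a serine protease of the first complement component, had 4.13, 5.90 and 8.06 CPM in KO1 against 0, 0.0421, 0.0452 and 0 CPM in KO2 (ratio 288, interval 98.2 to 1401, edgeR adjusted p = 0.00101). In none of these 4 genes did the controls reach 1 CPM, so KO1 was the only one of the 3 lines that expressed them above that level, whereas 4 of the 7 genes silent in KO1 were at 1 CPM or more in the controls.
Asb2 (a ubiquitin ligase substrate adaptor), Syt13 (a synaptotagmin) and Nos2 (inducible nitric oxide synthase) followed, with log2 differences of 7.67 (SE 1.09), 7.56 (SE 0.95) and 7.54 (SE 1.03) and KO2 levels of at most 0.279 CPM. Nos2 stood at 3.70, 32.7 and 7.11 CPM in KO1, so its replicates spread widely although none came near the KO2 libraries.

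**Figure D2:**
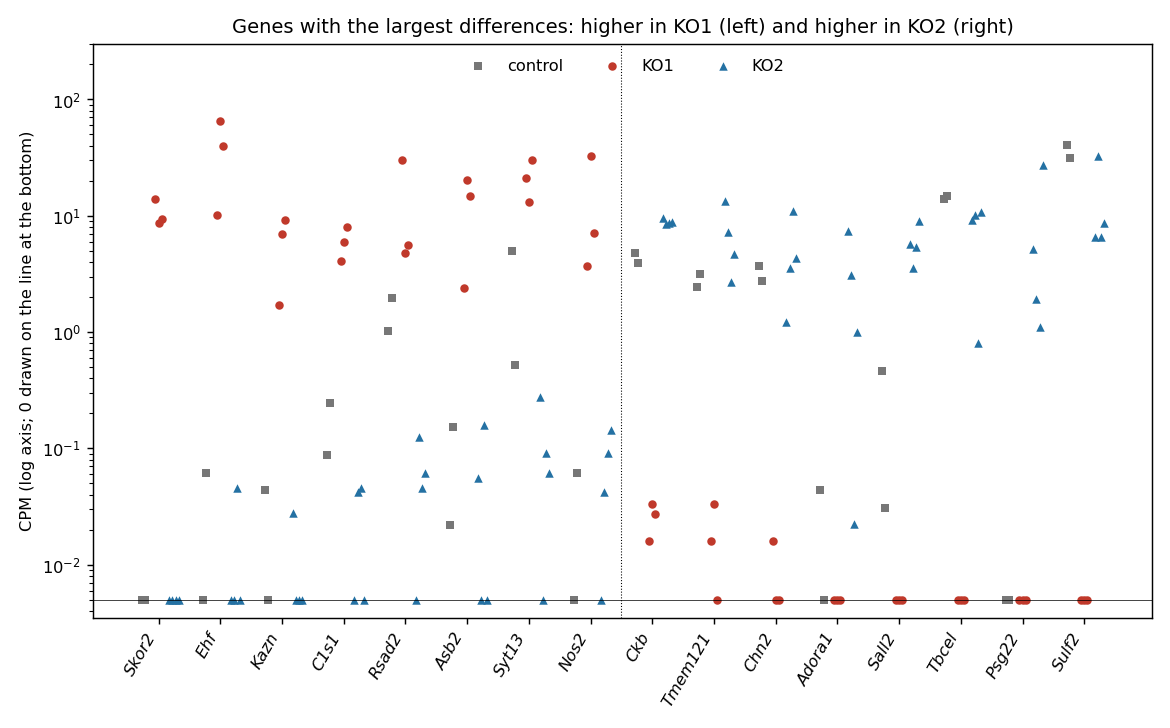
Points give CPM on a log axis for each control, KO1 and KO2 library, with 0 drawn on the line at the bottom, for the 8 protein-coding genes with the largest differences in each direction. Ehf reaches 64.9 CPM in KO1 and at most 0.0452 CPM in KO2, and Sulf2 is at 0 in all 3 KO1 libraries.

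Among abundant genes the clones differed by smaller folds on far more reads. Krt7, a simple-epithelial keratin, was at 2642, 2812 and 3347 CPM in KO1 against 929, 702, 1454 and 651 CPM in KO2, a log2 difference of 1.65 (SE 0.26, edgeR adjusted p = 0.00694). Cldn4, a tight junction protein, was at 1145, 1492 and 787 CPM in KO1 against 230.4, 403, 449 and 481 CPM in KO2 (log2 difference 1.55, SE 0.27, edgeR adjusted p = 0.011). Both are parts of the epithelial apparatus, and neither gene's libraries overlapped between clones.
Thbs1 (thrombospondin-1, a matrix glycoprotein) and H1f0 (a linker histone of slowly dividing cells) were also higher in KO1, with log2 differences of 2.08 (SE 0.36, edgeR adjusted p = 0.0104) and 1.48 (SE 0.28, edgeR adjusted p = 0.0151). Higher in KO2 was Ptgs2, the inducible cyclooxygenase of prostaglandin synthesis, at 689, 1956, 684 and 769 CPM against 326, 145 and 240.0 CPM (log2 difference -2.11, SE 0.44, edgeR adjusted p = 0.0192). With the line ends as a term the calls of Cldn4, Thbs1, H1f0 and Ptgs2 were lost (edgeR adjusted p = 0.118, 0.113, 0.131 and 0.169).

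Interferon-stimulated genes were the list with the highest share of called members. Interferons bind surface receptors and activate transcription factors, which turn on a shared set of antiviral genes. All 42 listed genes were tested, 35 (83.3%) were higher in KO1, none was higher in KO2, and all 42 had a log2 difference above 0, with a median of 2.85 against -0.02 over all tested genes. Libraries did not overlap for 36 of the 42, against 24.5% of all tested genes. Without KO1 replicate 1 the number called was 25, with the line ends as a term it was 18, and with DESeq2 it was 37.

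The per-library medians of the list relative to the controls, on the scale log2(CPM + 0.1), were 1.28, 0.64 and 0.42 in KO1 and -1.89, -2.0, -1.43 and -0.88 in KO2. Control libraries therefore lay between the clones, nearer to KO1. Summed over the list, KO1 held 984.5 to 1630 CPM, KO2 441 to 737 CPM and the controls 1001 to 1116 CPM, so KO1 replicate 3 was not above the controls in the sum.

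Rsad2, which encodes the antiviral enzyme viperin, had the largest difference. It stood at 30.1, 4.81 and 5.6 CPM in KO1, at 0, 0.126, 0.0452 and 0.0613 CPM in KO2 and at 1.03 and 1.95 CPM in the controls, a log2 difference of 7.90 between the clones (SE 0.94, edgeR adjusted p = 0.0031). Cmpk2, its neighbor gene and a nucleotide kinase, had 17.7, 3.95 and 5.76 CPM in KO1 against 0, 0.0421, 0.181 and 0.163 CPM in KO2 (log2 difference 6.42, SE 0.85, edgeR adjusted p = 0.00435). In both genes KO1 replicate 1 was the highest library, as it was for the list as a whole.
Usp18, the protease that removes ISG15 from proteins and dampens the receptor, had 17.2, 14.2 and 12.8 CPM in KO1 against 0.502, 0.421, 1.83 and 0.368 CPM in KO2 (log2 difference 4.21, SE 0.55, edgeR adjusted p = 0.00427). Irf1, a transcription factor induced mainly by type II interferon, stood at 142, 153 and 102 CPM in KO1 against 16.7, 17.6, 29.1 and 51.1 CPM in KO2 (log2 difference 2.21, SE 0.36, edgeR adjusted p = 0.00889). Ifi44 differed by 5.21 on the log2 scale (SE 0.88, edgeR adjusted p = 0.00973), while the receptor subunit gene Ifnar1 ranged over 61.3 to 72.3 CPM in KO1 and 54.6 to 63.4 CPM in KO2 and overlapped.

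The calls of some central members depended on 1 library. Irf7, Isg15 and Ifit1 were called with log2 differences of 2.82, 2.32 and 3.74, and all 3 calls were lost without KO1 replicate 1 (edgeR adjusted p = 0.114, 0.124 and 0.114). Their log2 differences were at least 2.07, 1.78 and 3.06 in all 9 fits that left out 1 library. Isg15, the ubiquitin-like protein of this response, shows the pattern: 28.8, 12.2 and 12 CPM in KO1, 1.59, 1.64, 2.94 and 7.85 CPM in KO2, and 19.8 and 21.4 CPM in the controls.

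The stretches before these genes were searched on either strand for the letters GAAA, any 2 bases and GAAA again, the spaced pair found in interferon-stimulated response elements. In the 250 bases before the start of each gene (RefSeq, GRCm38.p6), 15 of the 31 listed genes with a sequence had a match (48.4%), against 329 of 10503 tested genes (3.13%). The share was 6.97% over all genes higher in KO1 (69 of 990) and 2.65% over all genes higher in KO2. Of these 69 genes 14 were called members of the list. The list's own share rests on which genes it holds and not on the clones. Matches of 5 called members are printed in the direction of the gene, with the match in capitals, because matches were more frequent in the list than over all tested genes. The other 16 listed genes with a sequence had none.
Isg15, chr4:156200865-156200894, minus strand: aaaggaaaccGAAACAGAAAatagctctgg
Ifit1, chr19:34640794-34640823, plus strand: ccagtctcagTTTCAGTTTCtcactgctga
Rsad2, chr12:26456553-26456582, minus strand: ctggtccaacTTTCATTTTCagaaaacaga
Oas3, chr5:120777715-120777744, minus strand: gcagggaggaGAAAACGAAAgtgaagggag
Igtp, chr11:58199512-58199541, plus strand: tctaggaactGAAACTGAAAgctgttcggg
The matches of Ifit1 and Rsad2 lie on the opposite strand and so read as TTTC pairs. They began 66, 85, 120, 75 and 34 bases before the start in the order printed. A match is a description of letters, and binding was not measured here.

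**Figure D3:**
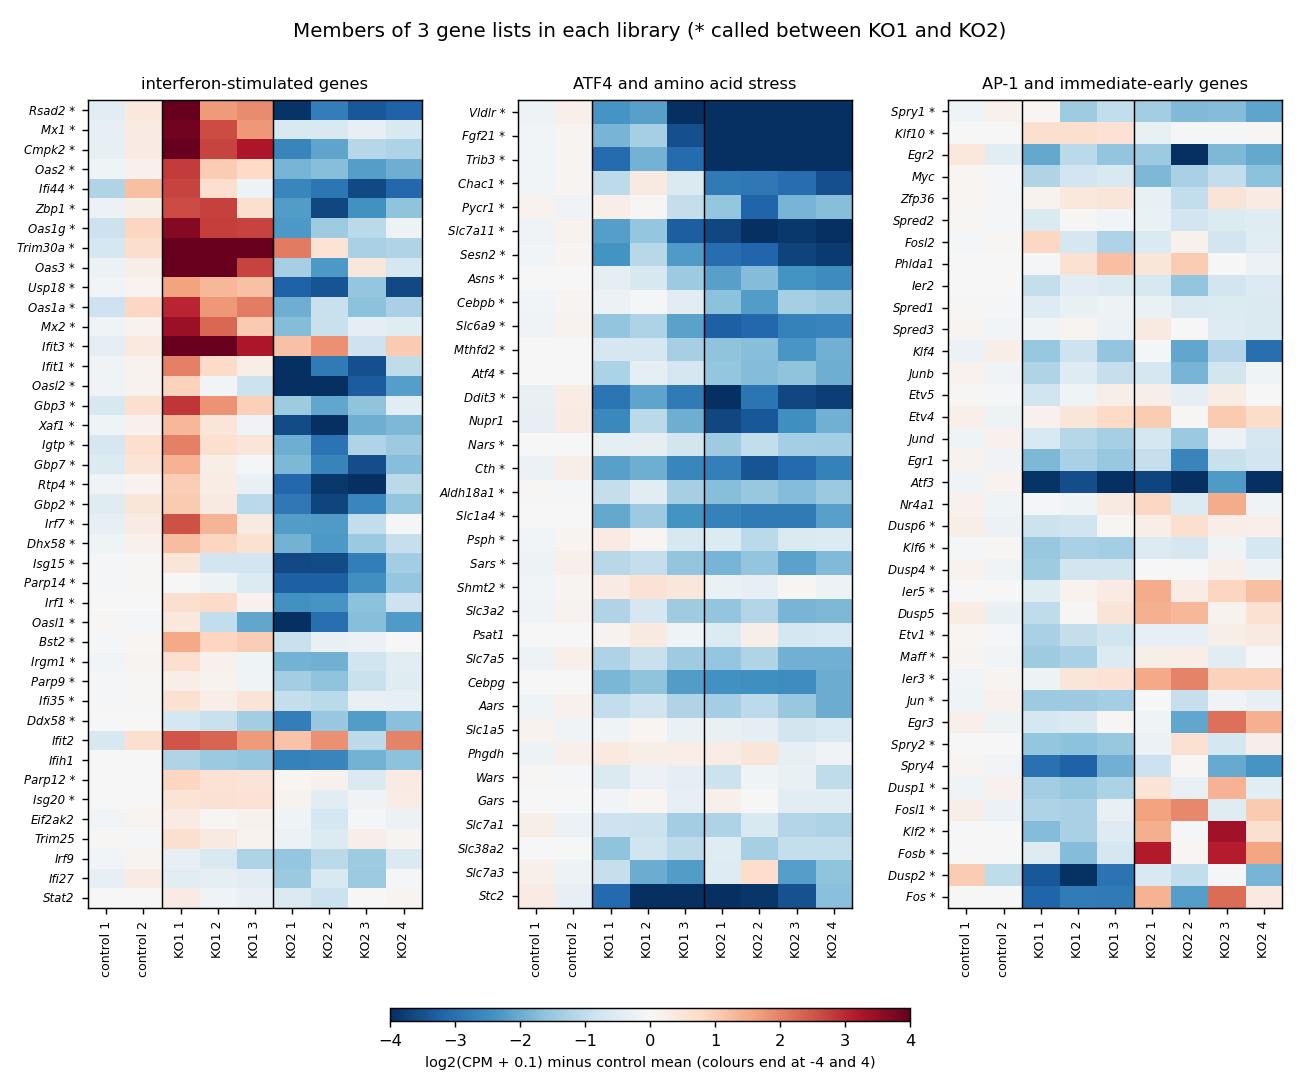
Colours give log2(CPM + 0.1) minus the control mean for the members of 3 lists in each library (1 interferon-stimulated gene is not shown), ordered by the difference between KO1 and KO2, with called members starred and colours ending at -4 and 4. The list medians of the interferon-stimulated genes (left) lie above the controls in KO1 and below them in KO2, at 1.28, 0.64 and 0.42 against -1.89, -2.0, -1.43 and -0.88. Of all 42 members 38, 33 and 26 were above the control mean in the KO1 libraries and 5, 4, 2 and 7 in the KO2 libraries.

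MHC class I presentation, which displays peptides of cellular proteins to T cells, had called members in the KO1 direction. Of 20 tested members 9 were higher in KO1 and none higher in KO2, with a median log2 difference of 0.58. They were 8 genes of peptide processing, transport and loading and 1 heavy chain. Psmb8, an immunoproteasome subunit, stood at 57.3, 34.4 and 51.1 CPM in KO1 against 3.12, 5.09, 6.60 and 5.82 CPM in KO2 (log2 difference 3.20, SE 0.28, edgeR adjusted p = 0.000785). Psmb9, a further immunoproteasome subunit, Tapbpl, a loading chaperone, and Tap1, a peptide transporter, differed by 2.63 (SE 0.48), 2.15 (SE 0.29) and 1.75 (SE 0.38) on the log2 scale, and the calls of Psmb9 and Tap1 were lost with the line ends as a term (edgeR adjusted p = 0.116 and 0.191). Of the processing genes Psmb10, an immunoproteasome subunit, and Erap1, a peptide-trimming protease, did not pass the test (log2 differences 0.73 and 0.36, edgeR adjusted p = 0.111 and 0.506).
The chains that carry the peptide also differed among themselves. H2-T23, a non-classical heavy chain, was at 49.97, 46.1 and 43.2 CPM in KO1 and 28.2, 16.2, 19.4 and 29.3 CPM in KO2 without overlap (log2 difference 0.99, SE 0.22, edgeR adjusted p = 0.0233). The light chain B2m was at 417, 361 and 341 CPM in KO1 and 507, 436, 164 and 313 CPM in KO2 (log2 difference 0.07, SE 0.31, edgeR adjusted p = 0.902), and H2-K1 at 269, 191 and 224 against 355, 198, 167 and 214 CPM (log2 difference -0.03, SE 0.24, edgeR adjusted p = 0.943). H2-K1 and H2-T23 share near-identical sequence with other class I genes, so their counts are uncertain. With the line ends as a term 3 members of the list were called.

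Chemokines, cytokines and innate immune genes differed in level by large folds, with wide spread among KO1 libraries. Of 25 tested members of the chemokine and cytokine list 10 were higher in KO1 and 3 higher in KO2 (13 called in all), and without KO1 replicate 2 or with the line ends as a term 3 were called. Cxcl5, a neutrophil attractant, stood at 115, 764 and 541 CPM in KO1 and 13.2, 96.8, 85.7 and 14.2 CPM in KO2 (log2 difference 3.17, SE 0.81, edgeR adjusted p = 0.037), a call lost without KO1 replicate 2 (edgeR adjusted p = 0.141). Ccl5, a T cell attractant, had 22.9, 14.4 and 12.1 CPM in KO1 against 0.892, 1.56, 3.16 and 6.07 CPM in KO2 (log2 difference 2.48, SE 0.57, edgeR adjusted p = 0.0259), a call lost with the line ends as a term (edgeR adjusted p = 0.238).
C3, the central complement protein, was chosen after its values were seen. It stood at 107, 837 and 513 CPM in KO1, 2.09, 0.884, 5.33 and 2.55 CPM in KO2 and 20.7 and 21.5 CPM in the controls (log2 difference 7.45, SE 0.77, edgeR adjusted p = 0.00155). Lcn2, the iron-sequestering acute-phase protein lipocalin-2, had 23.3, 75.9 and 41.4 CPM in KO1 against 0.307, 0.0842, 2.76 and 0.715 CPM in KO2 (log2 difference 5.54, SE 0.93, edgeR adjusted p = 0.00945). For both genes the controls lay between the clones.
Casp1 and Casp4, inflammatory caspases, were higher in KO1 as well, by 4.21 (SE 0.97, edgeR adjusted p = 0.0261) and 3.42 (SE 0.79, edgeR adjusted p = 0.0259) on the log2 scale. The call of Casp1 was lost with the line ends as a term (edgeR adjusted p = 0.331) and that of Casp4 without KO1 replicate 2 (edgeR adjusted p = 0.107). Casp1 had 11.7, 16.5 and 12.4 CPM in KO1, at most 1.78 CPM in KO2 and at most 0.0658 CPM in the controls.
Il1a, the cytokine interleukin-1 alpha, overlapped between clones: 32.1, 415 and 406 CPM in KO1 and 2.23, 0.674, 36.7 and 2.27 CPM in KO2 (log2 difference 4.75, SE 1.30, edgeR adjusted p = 0.0459). Its call was lost without KO1 replicate 2 or 3 (edgeR adjusted p = 0.141 and 0.109) and with DESeq2, and its difference was 7.30 without KO2 replicate 3. Spp1 (osteopontin) was called at 2.30 (SE 0.54), lost without KO1 replicate 2 (edgeR adjusted p = 0.101), and Cxcl10 (a T cell chemokine) at 2.27 (SE 0.57), which was 1.37 and lost without KO1 replicate 1 (edgeR adjusted p = 0.145). Ccl20, a ligand of CCR6, at 2.91 (SE 0.89, edgeR adjusted p = 0.0633), was 1.60 without KO1 replicate 2 (edgeR adjusted p = 0.311) and lost its call in 5 of 9 such fits. Il11, a gp130 cytokine, was higher in KO2 by -2.08 on the log2 scale (KO1 over KO2, SE 0.56, edgeR adjusted p = 0.043), with overlap, a call lost without any 1 of the KO1 libraries (edgeR adjusted p = 0.102, 0.163 and 0.12).

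Targets of ATF4 formed the second list with called members in 1 direction. ATF4 is the transcription factor of the integrated stress response, which raises amino acid synthesis and import when amino acids or redox balance fail. Of 34 tested members 20 (58.8%) were higher in KO1 and none higher in KO2, 31 had a log2 difference above 0, and the median was 0.72. Without KO1 replicate 2 the count was 13, and with the line ends as a term it was 9. Both clones lay below the controls here, with list medians relative to control of -1.09, -0.79 and -1.40 in KO1 and -1.62, -1.71, -2.02 and -1.86 in KO2.

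Atf4 itself was at 238, 446 and 359 CPM in KO1, 195, 174, 188 and 147 CPM in KO2 and 567 and 582 CPM in the controls (log2 difference between clones 0.98, SE 0.20, edgeR adjusted p = 0.018), a call lost with the line ends as a term (edgeR adjusted p = 0.151). Trib3, a pseudokinase that feeds back on ATF4, stood at 60.8, 139 and 61.2 CPM in KO1, 13.9, 7.91, 14.4 and 8.36 CPM in KO2 and 474 and 553 CPM in the controls (log2 difference 2.96, SE 0.34, edgeR adjusted p = 0.00261). Chac1, which breaks down glutathione, had 71.7, 193 and 99.4 CPM in KO1 against 20.7, 20.2, 18.1 and 12.9 CPM in KO2 (log2 difference 2.75, SE 0.32, edgeR adjusted p = 0.00261). Its control levels of 138 and 160.4 CPM fell inside the KO1 range, unlike those of Trib3.
Vldlr, a lipoprotein receptor, was at 36.9 and 48.0 CPM in the controls, 8.19, 9.19 and 1.27 CPM in KO1 and 0.223, 0.253, 0.0678 and 0 CPM in KO2 (log2 difference between clones 5.66, SE 0.88, edgeR adjusted p = 0.00714). Asns, the asparagine synthetase gene, and Slc7a11, the cystine importer, were higher in KO1 than in KO2 by 1.41 (SE 0.26, edgeR adjusted p = 0.0133) and 1.81 (SE 0.35, edgeR adjusted p = 0.0147), the latter call lost with the line ends as a term (edgeR adjusted p = 0.124). Ddit4, an inhibitor of mTORC1 outside the list, stood at 388, 744 and 401 CPM in KO1 and 60.02, 55.9, 151 and 113 CPM in KO2 (log2 difference 2.42, SE 0.37, edgeR adjusted p = 0.00684). Chaperones of the unfolded protein response, the other arm of endoplasmic reticulum stress, were not called higher in KO1: 0 of 29 tested members were, and 4 (13.8%) were higher in KO2. The number called was 0 without KO1 replicate 2 or with the line ends as a term and 14 without KO2 replicate 3.

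Epithelial junction and keratin genes were read against matrix and adhesion genes, since 4T1 cells sit between epithelial and mesenchymal states. Of 49 tested epithelial members 16 (32.7%) were higher in KO1 and none higher in KO2, with 41 above 0 and a median log2 difference of 0.53. That number was 5 without KO1 replicate 2, 3 with the line ends as a term and 29 without KO2 replicate 3. Elf3, an epithelial ETS factor, stood at 26.2, 63.2 and 43.7 CPM in KO1 and 9.12, 5.85, 23.7 and 8.42 CPM in KO2 (log2 difference 1.91, SE 0.46, edgeR adjusted p = 0.0309), a call lost without KO1 replicate 2 (edgeR adjusted p = 0.137). Cldn3, a tight junction claudin, had 605, 511 and 336 CPM against 143, 171, 25 and 12.8 CPM (log2 difference 2.46, SE 0.74, edgeR adjusted p = 0.0623), a call lost without any 1 of the KO1 libraries (edgeR adjusted p = 0.159, 0.163 and 0.101). Both genes were higher in every KO1 library than in every KO2 library.
Other defining epithelial genes gave no firm difference. Cdh1, the adhesion molecule E-cadherin, was at 669, 664 and 578 CPM in KO1 and 484, 354, 503 and 541 CPM in KO2 without overlap, and missed the threshold (log2 difference 0.44, SE 0.16, edgeR adjusted p = 0.109). Epcam and Krt18 overlapped, with log2 differences of 0.58 (SE 0.38, edgeR adjusted p = 0.341) and 0.32 (SE 0.33, edgeR adjusted p = 0.557). Krt8 was called at 0.80 (SE 0.27, edgeR adjusted p = 0.0874) with overlap, and lost its call in 6 of 9 fits that left out 1 library, with adjusted p up to 0.275 without KO1 replicate 3 (edgeR). Erbb2, called at 0.66 (SE 0.23, edgeR adjusted p = 0.0905) with overlap, kept its call in 1 of the 9 and reached 0.264 without KO1 replicate 2 (edgeR adjusted p), and Esr1 overlapped (log2 difference -0.13, SE 0.27, edgeR adjusted p = 0.784).

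Vim, the mesenchymal intermediate filament vimentin, was far higher in 3 of the 4 KO2 libraries. It stood at 2857, 3142, 574 and 2774 CPM in KO2, 321, 306 and 977 CPM in KO1 and 381 and 258 CPM in the controls (log2 difference -2.13, SE 0.61, edgeR adjusted p = 0.0517). KO2 replicate 3 fell below KO1 replicate 3, so the groups overlapped, and the call was lost without KO1 replicate 1 or 2 (edgeR adjusted p = 0.164 and 0.188). The mesenchymal list as a whole had 3 of 23 members higher in KO1 and 5 higher in KO2 (34.8% called, against 19.6% over all tested genes). The total of 8 was 4 without KO1 replicate 2 and 1 with the line ends as a term.

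Matrix genes split by member. Of 49 tested matrix proteins and matrix enzymes other than collagens 7 were higher in KO1 and 15 higher in KO2 (44.9% called, median -0.33), and the total of 22 was 10 without KO1 replicate 2 and 5 with the line ends as a term. Higher in KO1 were Adam8, a metalloprotease-disintegrin, at 58.9, 164 and 157 CPM against 18.3, 11, 12.6 and 19.7 CPM (log2 difference 3.03, SE 0.35, edgeR adjusted p = 0.00261), and Mmp13, a collagenase, at 4.49, 24.7 and 68.9 against 1.31, 2.86, 2.60 and 2.04 CPM (log2 difference 3.89, SE 0.72, edgeR adjusted p = 0.0134), a call lost with the line ends as a term (edgeR adjusted p = 0.13). Related proteases were on the other side: Adam19 was at 148, 98.3, 40.2 and 105 CPM in KO2 and 12.5, 9.75 and 14.1 CPM in KO1 (log2 difference -3.01, SE 0.42, edgeR adjusted p = 0.00491).
Mmp10, stromelysin-2, had 21.0, 7.96, 26.2 and 27.4 CPM in KO2 and at most 4.22 CPM in KO1 (log2 difference -3.10, SE 0.65, edgeR adjusted p = 0.0194). Tnc (tenascin-C) was called at -3.93 (SE 1.00, edgeR adjusted p = 0.037), a call lost without KO1 replicate 2 or 3 (edgeR adjusted p = 0.148 and 0.11). Fn1, fibronectin, the most abundant of these genes, stood at 3658, 2518, 1876 and 3696 CPM in KO2 and 1292, 1702 and 1333 CPM in KO1 (log2 difference -1.03, SE 0.24, edgeR adjusted p = 0.0263), a call lost with the line ends as a term (edgeR adjusted p = 0.298).

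Basement membrane collagen IV was lower in KO1 than in both other lines. Col4a1 stood at 274, 272 and 309 CPM in KO1, 745, 957, 699.7 and 933 CPM in KO2 and 640.1 and 667 CPM in the controls (log2 difference between clones -1.55, SE 0.15, edgeR adjusted p = 0.00119). Its head-to-head partner Col4a2 differed by -1.44 (SE 0.19, edgeR adjusted p = 0.00427), and the fibrillar Col5a1 by -3.04 (SE 0.57, edgeR adjusted p = 0.0141), the last call lost with the line ends as a term (edgeR adjusted p = 0.113). In all, 4 of 19 tested collagens were higher in KO2 and 1 higher in KO1 (26.3% called, against 19.6% over all tested genes). The total of 5 was 3 without KO1 replicate 1, 9 without KO2 replicate 3 and 2 with the line ends as a term. Of 41 integrin and focal adhesion genes 10 were higher in KO2 and 2 higher in KO1 (29.3% called, against 19.6% over all tested genes). The total of 12 was 4 without KO1 replicate 2 and 2 with the line ends as a term. Itga8, an RGD-binding integrin chain, had 12, 15.6, 17.1 and 21.6 CPM in KO2 against 2.50, 1.62 and 4.16 CPM in KO1 (log2 difference -2.58, SE 0.36, edgeR adjusted p = 0.00479), and Itga1, a collagen-binding chain, was called at -2.65 (SE 0.57, edgeR adjusted p = 0.0211) and lost without KO1 replicate 2 (edgeR adjusted p = 0.103).
Lcp1, the actin-bundling protein L-plastin, was at 0.733, 5.17 and 10.0 CPM in KO1, at 151, 578, 12.6 and 14.8 CPM in KO2 and at 158 and 155 CPM in the controls (log2 difference -5.17, SE 1.5, edgeR adjusted p = 0.0545). The KO2 libraries themselves fell into a high and a low pair for this gene, and the call was lost without any 1 of the KO1 libraries (edgeR adjusted p = 0.15, 0.182 and 0.105).

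AP-1 and immediate-early genes are the transcription factors and phosphatases that cells switch on within minutes of a growth signal. Of 37 tested members 15 were higher in KO2 and 2 higher in KO1 (45.9% called, median log2 difference -0.58), a total of 17 that was 10 without KO1 replicate 1 and 9 with the line ends as a term. List medians relative to control were -1.03, -0.79 and -0.62 in KO1 and -0.14, -0.40, -0.14 and -0.21 in KO2, so the KO2 libraries lay near the controls and the KO1 libraries below them.

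Fos stood at 7.55, 10.0 and 9.90 CPM in KO1, 186, 15.2, 330.1 and 92.9 CPM in KO2 and 71.0 and 70.4 CPM in the controls (log2 difference between clones -4.09, SE 0.84, edgeR adjusted p = 0.0185). Its partner Fosb had 18.5, 7.89 and 16.6 CPM in KO1 and 239, 28.1, 235 and 80.4 CPM in KO2 (log2 difference -3.34, SE 0.70, edgeR adjusted p = 0.0195). In both genes KO2 replicate 2 was the lowest KO2 library, yet above all 3 KO1 libraries. Jun, the usual dimer partner of Fos, was at 129, 128 and 138 CPM in KO1 and 345, 184, 315 and 279.5 CPM in KO2 (log2 difference -1.09, SE 0.21, edgeR adjusted p = 0.0143).
Klf2, a zinc finger factor, was called at -3.08 (SE 0.80, edgeR adjusted p = 0.0381). Its difference was -1.93 without KO2 replicate 3, where it stood at 86.9 CPM, and its call was lost without KO1 replicate 1 or 2 (edgeR adjusted p = 0.133 and 0.147). Klf10, a TGF-beta-inducible factor, went the other way, at 87.8, 88.1 and 83.1 CPM in KO1 and 45.6, 53.7, 54.2 and 57.6 CPM in KO2 (log2 difference 0.71, SE 0.12, edgeR adjusted p = 0.0114), a call lost with the line ends as a term (edgeR adjusted p = 0.111). Egr1, an immediate-early factor, overlapped between the clones (log2 difference -0.38, SE 0.37, edgeR adjusted p = 0.536).

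Growth factor ligands followed in part. Areg, amphiregulin, a ligand of the EGF receptor, was at 6.77, 9.55 and 12.4 CPM in KO1, 53.1, 46.2, 49.2 and 55.1 CPM in KO2 and 91.0 and 87.4 CPM in the controls (log2 difference -2.41, SE 0.21, edgeR adjusted p = 0.000785). Tgfa, a second ligand of this receptor, was called at -0.79 (SE 0.26, edgeR adjusted p = 0.0763), but the difference was -0.51 without KO2 replicate 1 (edgeR adjusted p = 0.105) and the call was also lost without either control or KO1 replicate 1 or 2 (edgeR adjusted p = 0.113, 0.115, 0.223 and 0.225). Of 13 tested ErbB receptors and ligands 3 were higher in KO2 and 1 higher in KO1 (30.8% called, against 19.6% over all tested genes). The total of 4 was 1 with the line ends as a term and between 1 and 7 when 1 library was left out.

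Notch signalling passes between touching cells through Delta and Jagged ligands. Of 19 tested Notch genes 5 (26.3%) were higher in KO2 and none higher in KO1, against 10.2% and 9.43% over all tested genes. Dll4, a Delta ligand, stood at 1.90, 4.94 and 5.17 CPM in KO1 and 59.8, 129, 19.8 and 44.0 CPM in KO2 (log2 difference -3.99, SE 0.65, edgeR adjusted p = 0.00872). Jag2, a Jagged ligand, was at 0.781, 1.13 and 0.622 CPM in KO1, 44.1, 54.7, 6.42 and 4.54 CPM in KO2 and 50.3 and 46.8 CPM in the controls (log2 difference -5.03, SE 0.95, edgeR adjusted p = 0.0144). Both ligands were above every KO1 library in every KO2 library, and the call of Jag2 was lost with the line ends as a term (edgeR adjusted p = 0.135). The target gene Hes1 was called at -0.89 (SE 0.24, edgeR adjusted p = 0.0437), a call lost without any 1 of the KO1 libraries (edgeR adjusted p = 0.123, 0.145 and 0.12), and the list's total of 5 was 2 without KO1 replicate 1 or with the line ends as a term.

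Cadherins and protocadherins, adhesion proteins whose clustered genes are chosen one by one in single cells, had 18 of 33 tested members higher in KO2 and 1 higher in KO1 (57.6% called, median log2 difference -1.56). The total of 19 was 8 without KO1 replicate 2 and 1 with the line ends as a term. Most of the members were low. Pcdhb17 had 1.40, 2.09 and 1.35 CPM in KO1 against 6.66, 4.04, 9.40 and 17 CPM in KO2 (log2 difference -2.53, SE 0.50, edgeR adjusted p = 0.0167), and Pcdhb20 had 0.653, 0.696 and 1.00 against 4.35, 3.03, 3.53 and 5.78 CPM (log2 difference -2.41, SE 0.36, edgeR adjusted p = 0.00588). The call of Pcdhb17 was lost with the line ends as a term (edgeR adjusted p = 0.11). Genes of this cluster are similar in sequence, and reads that aligned to several places entered no gene's count, so these levels may be too low.
Cdh17, an intestinal cadherin, was at 45.5, 13.7, 9.45 and 1.53 CPM in KO2 and at most 0.865 CPM in KO1 (log2 difference -5.55, SE 1.24, edgeR adjusted p = 0.0238), a call lost without KO1 replicate 2 (edgeR adjusted p = 0.104). Cdh10, a neuronal cadherin and the single member higher in KO1, had 0.207, 3.05 and 0.622 CPM there and 0 in KO2 and the controls, at least 50.2-fold higher in KO1 (edgeR adjusted p = 0.0331). Cdh5, the endothelial VE-cadherin, was at 0 in KO1 and at 0.697, 1.39, 0.0904 and 0.674 CPM in KO2 (at least 26.9-fold higher, edgeR adjusted p = 0.0208). Of the 3 endothelial markers tested 2 were called, both higher in KO2, Cdh5 and 1 not reported here by name. Kdr and Pecam1 were at or near 0. With the line ends as a term the calls of Cdh10 and Cdh5 were lost (edgeR adjusted p = 0.25 and 0.188), and Cdh10 passed the filter on low counts in 7 of the 9 fits that left out 1 library.

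Of 38 tested TGF-beta and BMP genes 9 were higher in KO2 and 3 higher in KO1 (median -0.43). That is 31.6% called, against 19.6% over all tested genes. The total of 12 was 7 without KO1 replicate 1 and 3 with the line ends as a term. Tgfbr2, the receptor that binds TGF-beta first, was at 353, 306 and 299 CPM in KO1 and 177, 188, 92.8 and 144 CPM in KO2 (log2 difference 1.09, SE 0.22, edgeR adjusted p = 0.0175), and the co-receptor Tgfbr3 at 10.5, 23.5 and 16.4 against 1.98, 2.61, 0.791 and 1.29 CPM (log2 difference 3.34, SE 0.47, edgeR adjusted p = 0.00506). Fst, follistatin, which traps activin, was higher in KO1 by 2.69 (SE 0.44, edgeR adjusted p = 0.00905), a call lost with the line ends as a term (edgeR adjusted p = 0.111). Id2, an inhibitor of helix-loop-helix factors and a BMP target, was at 48.8, 56.9, 84.2 and 35.1 CPM in KO2, 17, 12 and 11.1 CPM in KO1 and 1.78 and 2.87 CPM in the controls (log2 difference -2.07, SE 0.32, edgeR adjusted p = 0.00713). Both clones thus exceeded the controls for Id2, and KO2 by more.

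Of 33 tested Wnt genes 4 were higher in KO1 and 5 higher in KO2 (27.3% called, against 19.6% over all tested genes). The total of 9 was 4 without KO1 replicate 1 and 1 with the line ends as a term. Wnt10b, a canonical Wnt ligand of the mammary gland, had 12.3, 10.7 and 10.8 CPM in KO1, 1.87, 0.295, 0.769 and 0.0409 CPM in KO2 and at most 0.549 CPM in the controls (log2 difference 3.92, SE 0.85, edgeR adjusted p = 0.0223). Wnt7b, an abundant ligand here, was at 269.8, 341 and 357 CPM in KO1 and 186, 107, 138 and 89.8 CPM in KO2 (log2 difference 1.31, SE 0.23, edgeR adjusted p = 0.0123). The receptor gene Fzd7 was at 48.3, 41.3, 17 and 42.4 CPM in KO2 and 8.24, 5.54 and 11.3 CPM in KO1 (log2 difference -2.15, SE 0.37, edgeR adjusted p = 0.0108), on the other side from these ligands. With the line ends as a term the calls of Wnt10b, Wnt7b and Fzd7 were lost (edgeR adjusted p = 0.233, 0.13 and 0.134).

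A group of prolactin-family genes was chosen after its values were seen, and no list of related genes was counted. Prl3d1, Prl3d2, Prl3d3 and Prl2c3, which encode hormones known from trophoblast giant cells of the placenta, had 3 to 8 counts each in KO1 and 521 to 1690 counts each in KO2. Prl3d2, the highest, stood at 7.30, 1.47, 30.2 and 1.14 CPM in KO2 and at most 0.0637 CPM in KO1 (log2 difference -7.49, SE 1.46, edgeR adjusted p = 0.0157). Prl3d1 gave a ratio of 236 (95% interval 80.5 to 1147, edgeR adjusted p = 0.0138), and Prl2c3 a log2 difference of -5.90 (SE 1.23, edgeR adjusted p = 0.0224). These genes and Psg22 belong to families of near-identical copies. Reads that aligned to several copies were set apart as not unique and entered no gene's count, so these levels are uncertain and may be too low.

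Genes of cell division differed by small folds. Of 44 tested DNA replication genes 10 were higher in KO1 and 2 higher in KO2 (27.3% called, median log2 difference 0.18). Of 44 mitosis genes 7 and 1 were (18.2% called, median 0.14), no more than the 19.6% over all genes. Lig1, the DNA ligase of replication, was at 201, 284 and 234 CPM in KO1 and 134, 126, 166 and 146 CPM in KO2 (log2 difference 0.74, SE 0.17, edgeR adjusted p = 0.0247), with controls at 48.2 and 64.9 CPM. Mcm10, a replication initiation factor, and Plk1, the mitotic kinase, differed by 0.69 (SE 0.16, edgeR adjusted p = 0.0273) and 0.58 (SE 0.14, edgeR adjusted p = 0.0271). All 3 calls were lost without KO1 replicate 2 (edgeR adjusted p = 0.12, 0.126 and 0.119), which also left 3 replication genes and 1 mitosis gene called, and with the line ends as a term 1 replication gene and 2 mitosis genes were called.

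Metabolic and housekeeping lists were near or below the background of 19.6%. Cholesterol and fatty acid synthesis had 2 of 36 members called (5.56%), ribosomal proteins 9 of 84 (10.7%), mitochondrial ribosomal proteins 9 of 75, oxidative phosphorylation 12 of 75, the proteasome 6 of 37 (16.2%) and the Zfp zinc finger genes 39 of 327 (11.9%). Lysosome and autophagy genes had 4 members called in each direction of 44, and glycolysis and hypoxia genes 2 higher in KO1 and 5 higher in KO2 of 35. With the line ends as a term 0 ribosomal protein, oxidative phosphorylation and cholesterol genes, 1 gene each of the mitochondrial ribosome, proteasome, lysosome and glycolysis lists and 5 Zfp genes were called. Leaving out 1 library gave 2 to 16 ribosomal proteins, 2 to 17 mitochondrial ribosomal proteins, 2 to 22 oxidative phosphorylation genes, 3 to 10 proteasome genes, 11 to 61 Zfp genes, 2 to 9 lysosome genes, 1 to 12 glycolysis genes and 0 to 2 cholesterol genes. The lowest numbers came without KO1 replicate 2, except for the proteasome (KO1 replicate 1) and cholesterol (control replicate 1 among others) lists. Single genes in or beside such lists still differed. Mgst2, a microsomal glutathione transferase, was at 2.84, 14.6 and 8.65 CPM in KO1 and at most 0.542 CPM in KO2 (log2 difference 4.78, SE 0.69, edgeR adjusted p = 0.00555), and Ephx1, a detoxifying epoxide hydrolase, differed by 3.35 (SE 0.69, edgeR adjusted p = 0.0185), a call lost with the line ends as a term (edgeR adjusted p = 0.123).
Bid, which links caspases to mitochondrial cell death, was at 73.1, 85.7 and 84.6 CPM in KO1 and 25, 24.2, 26.5 and 25.6 CPM in KO2 (log2 difference 1.68, SE 0.13, edgeR adjusted p = 0.000449). Slc4a4, a bicarbonate transporter, was at 11.5, 12.8 and 8.63 CPM in KO1 and 1.14, 0.547, 0 and 0 CPM in KO2 (log2 difference 4.74, SE 1.21, edgeR adjusted p = 0.0374), a call lost without KO1 replicate 2 (edgeR adjusted p = 0.12). Egln3, an oxygen-sensing prolyl hydroxylase, was higher in KO2 by -2.16 on the log2 scale (KO1 over KO2, SE 0.54, edgeR adjusted p = 0.0338), a call lost without KO1 replicate 1 or 2 (edgeR adjusted p of 0.121 in both cases).

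The genes the study follows, and common reference genes, were looked at whatever their values. Purb, which encodes a single-strand DNA-binding protein, was at 252, 307 and 259.8 CPM in KO1 and 257, 279, 316 and 315 CPM in KO2 (log2 difference -0.09, SE 0.13, edgeR adjusted p = 0.673). Its relative Pura was called at 0.54 (SE 0.15, edgeR adjusted p = 0.0459), a call lost without KO1 replicate 1 or 2 (edgeR adjusted p = 0.164 and 0.124). Tns1, a focal adhesion protein gene, was at 1.23, 0.895 and 0.135 CPM in KO1 and 0.335, 0.379, 2.76 and 0.123 CPM in KO2, with controls at 6.80 and 2.17 CPM. The clones overlapped widely for Tns1 (log2 difference -0.26, SE 1.02, edgeR adjusted p = 0.891), and the difference was 0.23 without KO1 replicate 3 and 1.49 without KO2 replicate 3.
Malat1 and Xist, nuclear non-coding RNAs, overlapped between the clones, and Xist was at most 0.497 CPM in any KO library. Ppib, a reference gene of expression assays, was called at -0.91 (SE 0.26, edgeR adjusted p = 0.0532) with overlap, lost without any 1 of the KO1 libraries (edgeR adjusted p = 0.142, 0.191 and 0.109) or KO2 replicate 1 (edgeR adjusted p = 0.106), and 25% of its exon bases are shared with other genes.

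Whether the called genes clustered along chromosomes was described next. Chromosome 8 had 16 genes higher in KO1 and 230 higher in KO2 of 806 tested (30.5% called), with a median log2 difference of -0.34. Its median relative to the controls was -0.24, -0.31 and -0.25 in KO1 and 0.01, 0.12, 0.08 and -0.01 in KO2, so the KO1 libraries stood apart and the KO2 libraries lay at the controls. Chromosome 4 had 36 and 207 of 947, with a median of -0.31, and its KO1 libraries (-0.43, -0.41 and -0.38) also lay below its KO2 libraries (-0.04, 0.04, -0.32 and -0.25). Chromosomes 14, 12 and 13 had medians of -0.33, -0.27 and -0.27, with less separation. Relative to the controls chromosome 14 was at -0.48, -0.36 and -0.46 in KO1 and -0.48, 0.10, -0.33 and 0.08 in KO2, and chromosome 12 at -0.51, -0.45 and -0.40 against -0.41, -0.25, 0.07 and -0.22, so KO2 replicate 1 lay at the level of KO1 on both. Chromosome 13 was at -0.14, -0.18 and -0.12 in KO1 and -0.08, 0.09, -0.03 and 0.45 in KO2, where replicate 4 stood far above the others.
On the opposite side were chromosome 7, with 226 genes higher in KO1 and 56 higher in KO2 of 1087 (median 0.24), chromosome 15, with 106 and 20 of 564 (median 0.27), and chromosome 18, with 87 and 34 of 373 (32.4% called, median 0.24). The library medians overlapped between the clones on chromosomes 7 and 15 and did not on 18. Within windows of 10 Mb the highest medians were all on chromosome 7, at 140 to 150 Mb (0.51, 34 higher in KO1 and 3 higher in KO2 of 90), at 120 to 130 Mb (0.49, 57 and 4 of 138) and at 130 to 140 Mb (0.45, 19 and 4 of 44). The lowest were chromosome 14 at 110 to 120 Mb (-0.60, none called of 11), chromosome 13 at 20 to 30 Mb (-0.54, 1 and 13 of 52) and chromosome 12 at 40 to 50 Mb (-0.52, 0 and 3 of 13). Gene copy number was not measured in these libraries, and its part in these medians was not tested.

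**Figure D4:**
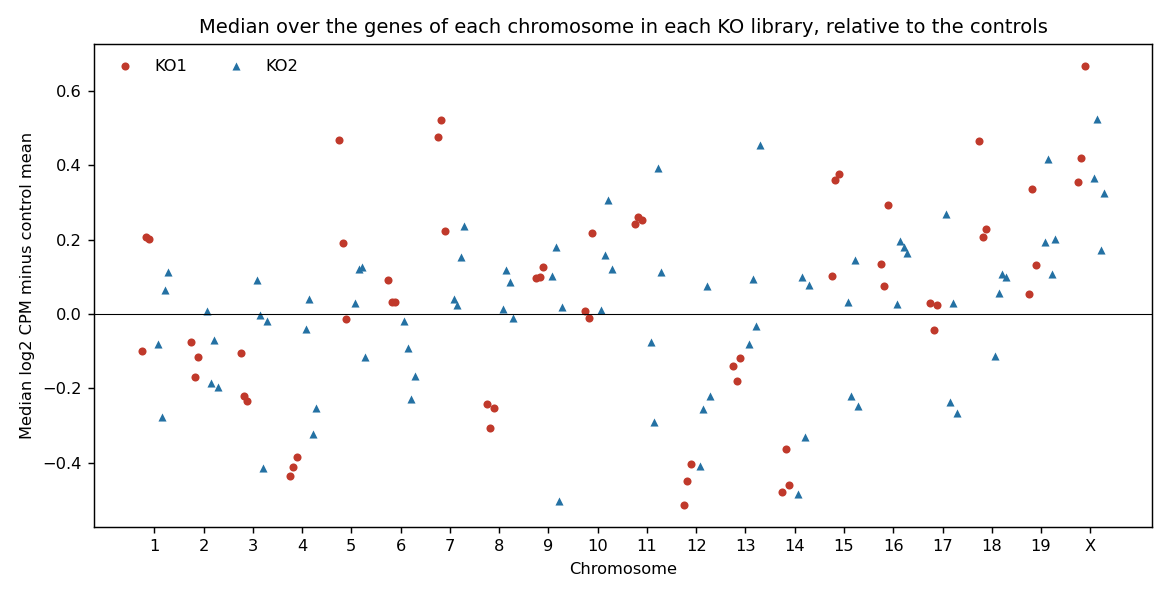
Points give, for each KO library, the median over the tested genes of a chromosome of log2 CPM minus the control mean, with KO1 as circles and KO2 as triangles. On chromosome 8 the 3 KO1 libraries lie between -0.31 and -0.24 and the 4 KO2 libraries between -0.01 and 0.12.

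The surroundings of MaTAR25 on chromosome 2 were examined because both clones were targeted there. Of the tested genes within 2 Mb, 37 with MaTAR25 itself, 6 were called lower in KO1 than in KO2 and 4 called higher, 27% in all against 19.6% over all tested genes. Cebpb, a transcription factor gene 137 kb away and also a listed ATF4 target, was at 48.7, 54.5 and 41.8 CPM in KO1, 18.1, 12.2, 22.6 and 20.5 CPM in KO2 and 52.9 and 61.4 CPM in the controls (log2 difference 1.39, SE 0.21, edgeR adjusted p = 0.00655), and 20.7% of its exon bases are shared with another gene. Ptpn1, a tyrosine phosphatase gene 98.4 kb away, was at 70.9, 57.0 and 84.5 CPM in KO1, 156, 139.5, 152 and 157 CPM in KO2 and 100.3 and 103 CPM in the controls (log2 difference -1.09, SE 0.15, edgeR adjusted p = 0.00474). For Ptpn1 the controls lay between the clones, and for Cebpb they lay at or above KO1.
Snai1, which encodes a repressor of E-cadherin, was at 15.3, 12.9 and 13.9 CPM in KO1 and 19, 19.2, 10.4 and 18.1 CPM in KO2 and overlapped (log2 difference -0.25, SE 0.24, edgeR adjusted p = 0.522), and the sign turned with the line ends as a term (0.17) and among files with the same line ends (0.43), of which only 1 is from KO2. The largest differences lay farther off. Sulf2, silent in KO1, is 1672 kb away, and Prex1, a Rac activator gene 1114 kb away at chr2:166566342-166713832, was at 0.127, 0.431 and 0.325 CPM in KO1, 2.48, 2.23, 30.4 and 1.76 CPM in KO2 and 9.94 and 8.54 CPM in the controls. Its log2 difference of -5.01 (SE 1.22, edgeR adjusted p = 0.0315) was -2.92 without KO2 replicate 3, and its call was lost without KO1 replicate 1 or 2 (edgeR adjusted p = 0.117 and 0.112). The call of Prex1 was also lost with DESeq2.
B4galt5 (-0.72, SE 0.23), Gm14321 (-0.96, SE 0.33) and Ripor3 (-1.21, SE 0.34) were also lower in KO1, and Zmynd8 (0.77, SE 0.17), Znfx1 (0.54, SE 0.14) and Rnf114 (0.58, SE 0.16) higher, on the log2 scale. Gm14321, a lincRNA gene, was at 0.365 to 0.573 CPM in KO1 and 0.695 to 0.976 CPM in KO2, and its call was lost in 6 of 9 fits that left out 1 library (up to edgeR adjusted p = 0.265, without KO1 replicate 2) and with DESeq2 (adjusted p = 0.126). The call of B4galt5 was lost in 7 of the 9 (up to edgeR adjusted p = 0.238, without KO1 replicate 2), those of Ripor3 and Rnf114 without KO1 replicate 1 (0.15 and 0.138) or 2 (0.184 and 0.158), that of Zmynd8 without KO1 replicate 2 (0.121) and that of Znfx1 without KO1 replicate 1 (0.154), all edgeR adjusted p.

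**Figure D5:**
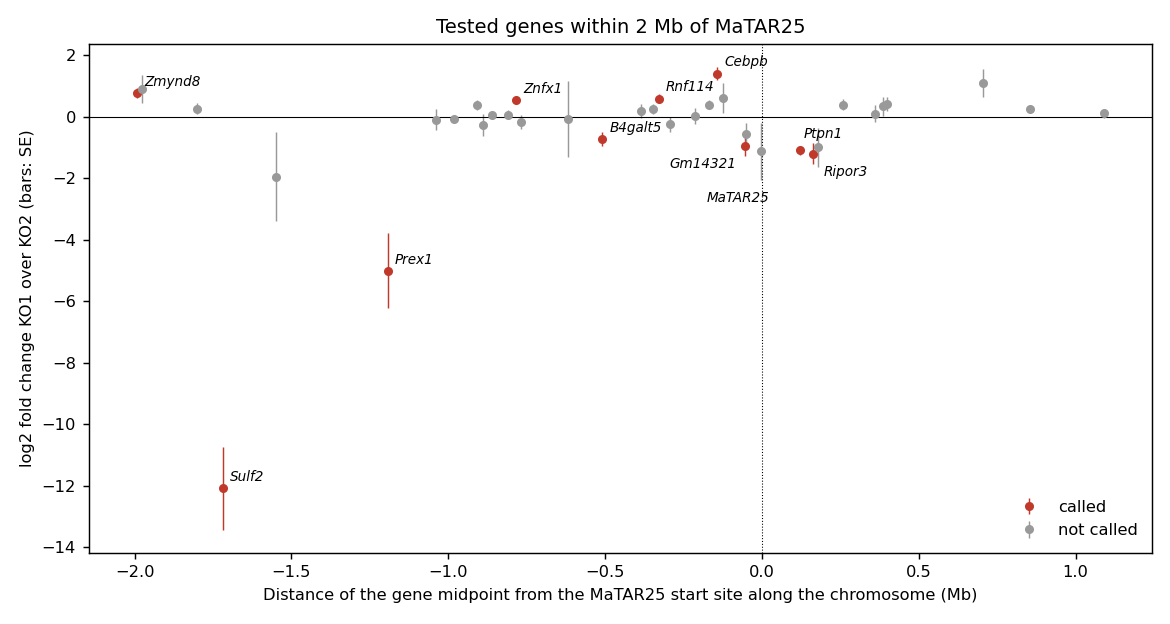
Each point is a tested gene within 2 Mb of MaTAR25, at its distance from the MaTAR25 start site in Mb, with its log2 difference KO1 over KO2 and its SE as a bar. Sulf2 and Prex1 lie far below the other genes, and the fitted value of Sulf2, at 0 in KO1, depends on the prior count of the fit.

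Each clone was also set against the controls, which both comparisons share. KO1 differed from control at 4750 genes (31.6% of those tested) and KO2 at 4724 (31.4%), against 2944 (19.6%) between the clones. The comparisons differ in numbers of libraries and in spread, so these counts do not rank how far apart the lines stood. Correlations of log2 CPM were 0.926 to 0.954 between KO1 and KO2 libraries. They were 0.933 to 0.945 between KO1 and control and 0.925 to 0.933 between KO2 and control. Of the 1417 genes higher in KO1 than in KO2, the control mean lay between the clones for 685, below both for 408 and above both for 324. Of the 1527 genes higher in KO2, these numbers were 754, 319 and 454. Over all 15023 tested genes they were 3597, 5925 and 5501. Called genes have a wider gap between the clones, which by itself favours a control mean between them. Genes shown here fall into each of these classes: Rsad2 (KO1 over control 3.18, edgeR adjusted p = 0.038; KO2 over control -4.72, edgeR adjusted p = 0.00848) had the controls between, Tgfbr3 (8.23 and 4.89, edgeR adjusted p = 0.000881 and 0.00358) had them below both, and Trib3 (-2.56 and -5.52, edgeR adjusted p = 0.00287 and 0.000295) had them above both.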

How the data were processed

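RNA was measured by polyA RNA-seq in 3 KO1, 4 KO2 and 2 control libraries of 4T1 cells. Per the labels and the study's methods, the authors aligned single-end reads to mouse build GRCm38 (mm10) with STAR and counted them per gene with HTSeq on GENCODE vM5, and the deposited files hold whole-number read counts per gene, not normalized. The library kit does not mark strand, so reads of overlapping antisense genes cannot be told apart, and 3 of 130 genes named here share over 20% of their exon bases with another gene. The KO2 replicate 2 file lists each gene 3 times with the same count, which was used once. Rows that name no gene (33.9% to 37.0% of counts in each file) were left out. Gene symbols came from GENCODE vM21, which matched 44671 of 45318 identifiers, and 647 kept their identifier.

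Counts were scaled by TMM, filtered with filterByExpr by group and fitted with edgeR 4.0.16 (R 4.3.3, quasi-likelihood test) over the 3 groups, and the contrast KO1 minus KO2 was called at a Benjamini-Hochberg adjusted p under 0.1 over 15023 genes. The biological coefficient of variation was 32.5%. DESeq2 1.42.0, another scaling, other filters and thresholds, a replicate block, a term for line ends and leaving out each library in turn were the alternatives. The same-numbered replicates of the clones did not deviate together (r = -0.05, -0.15 and -0.01), so numbers were not used as pairs. The scripts were tested on simulated data. Upstream sequences came from RefSeq (GRCm38.p6), with chromosome 18 left out.

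Genes were named among called protein-coding genes whose mean over the KO libraries was 1 CPM or more and whose clones did not overlap, namely the 8 with the largest fold in each direction, the 4 most abundant in each direction with at least 2-fold, and up to 3 in each direction of each list, of which a part is described, with markers and reference genes whatever their values. Some genes of the rule and of the lists are counted but not reported here by name. Genes outside this rule were chosen after their values were seen (36 genes, among them Irf7, Isg15, Ifit1, Usp18, Irf1, C3, Il1a, Spp1, Atf4, Asns, Jun and Prex1). The clones, gene lists and tests were chosen with earlier results of these data known. Counting intervals cover counting error only, since reads carry no molecular identifiers.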

Additional observations from a re-analysis of the deposited data

Results flagged for a closer look

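In groups of 4 libraries, the highest or lowest KO2 library stood far from the other 3 by Dixon's criterion for 17 of the 130 genes named. Chance flags about 1 in 20 groups only where values are normally distributed. The criterion was applied to CPM, which need not be so, and the 17 cannot be set against that rate. KO1 and control groups are too small for this check. KO2 replicate 3 was the distant library for Prex1 (30.4 CPM), Snai1 (10.4 CPM), Tbcel (0.814 CPM), Ehf (0.0452 CPM), Usp18 (1.83 CPM), Il1a (36.7 CPM), Vim (574 CPM), Tns1 (2.76 CPM) and Ephx1 (3.25 CPM). KO2 replicate 2 was the distant library for Sulf2 (32.5 CPM), H1f0 (264 CPM), Ptgs2 (1956 CPM), Egr1 (84.5 CPM) and Malat1 (1008 CPM). KO2 replicate 1 stood apart for Tgfa (236 CPM) and Kazn (0.0279 CPM), and KO2 replicate 4 for Psg22 (27.5 CPM). The values of Ehf and Kazn in these libraries are 2 counts and 1 count.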

How the results depend on the processing

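The 2944 calls (1417 higher in KO1, 1527 higher in KO2) became 1643 (834 and 809) at an adjusted p of 0.05, 1523 (687 and 836) with at least 2-fold, 1932 (929 and 1003) from the KO libraries alone, 1736 (901 and 835) with a replicate block, 473 (237 and 236) with the line ends of the files as a term and, an alternative chosen after seeing the data, 1276 (684 and 592) in the files with the same line ends. Leaving out 1 library at a time gave 874 to 4077 calls, 469 to 2005 higher in KO1 and 405 to 2072 higher in KO2. DESeq2 called 3458, of which 2772 were among the 2944, and the other scaling called 2975. No gene called under both the main settings and an alternative changed direction in any alternative run. These runs share libraries with the main fit, so a change of direction among such genes was unlikely from the start. Of 114 called genes named, 76 kept their call whichever library was left out, 111 with DESeq2, 99 with the block and 58 with the line ends as a term, and Cdh10 was not tested in 2 of the 9 fits and is not among the 76. In the files with the same line ends 73 were called, but KO2 is 1 library there (replicate 3) and is assumed to vary like the KO1 libraries, which alone give the spread. The numbers of replicates are not pairs, and the block called 1583 of the 2944.

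The sign of the log2 difference turned for genes that were not called: H2-K1 (0.30 with the line ends as a term, 0.082 and 0.24 without KO1 replicate 2 or KO2 replicate 1, 0.45 in files with the same line ends), Snai1 (0.17 with that term, 0.43 in those files), B2m (-0.015 and -0.17 without KO1 replicate 1 or KO2 replicate 3, range -0.17 to 0.29 over the libraries left out), Tns1 (0.23 and 1.49 without KO1 replicate 3 or KO2 replicate 3, range -0.83 to 1.49), Esr1 (0.012 without KO2 replicate 3, range -0.35 to 0.012), and, in files with the same line ends, Epcam (-0.17) and Krt18 (-0.045). Ppib, which was called, was at 0.014 in those files. The cause of these changes was not tested. Depth limits MaTAR25 and genes under 1 CPM, and 3 counts over a clone are the floor of every bound given.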
